A study of Mus musculus with 45 samples.

Results

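Smad2/3 DKO ESCs were compared with Smad2 KO ESCs to ask what loss of Smad3 adds to loss of Smad2 before differentiation begins. The comparison took 6 of the 45 arrays of the series, chosen by their labels. The Smad2/3 DKO arrays held clones KT15.2G9, KT15.1F6 and KT15.2D5, which carry the Smad2 null allele tm1Rob and a homozygous CRISPR deletion around Smad3 exon 1. The Smad2 KO arrays held clones KT12, KT15 and KT17, which carry the Smad2 allele alone. By their names all 3 DKO clones descend from KT15, so the spread among them is a spread within 1 Smad2 KO line. The 4 WT ESC arrays (clones CCE, CCB, CCH and CCF) entered the same fit carry neither change, and serve as a level to read against. The lines were XY ESCs of 129/Sv//Ev background grown without feeder cells in serum with LIF, and each array held RNA of 1 clone, so p-values measure the spread between clones.

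Smad2 and Smad3 carry signals of Nodal, Activin and TGF-beta ligands to the nucleus. Bound ligands bring type I and type II receptors together, the receptors phosphorylate Smad2 and Smad3, and these join Smad4 and act on DNA with partners such as Foxh1. Nodal needs the coreceptor Cripto, encoded by Tdgf1, and is held in check by its own targets Lefty1 and Lefty2. Bmp ligands act through Smad1 and Smad5, with the Id genes as well-known targets. ESCs make Nodal themselves, so the pathway can be active before any differentiation cue.

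Smad3 was the gene that fell in Smad2/3 DKO ESCs, and it was also the check of the labels. Its brighter probe read 5.20, 5.35 and 5.04 on the normalized log2 scale in DKO clones 2G9, 1F6 and 2D5, against 8.92, 7.89 and 8.65 in KT12, KT15 and KT17. It was not above background on any DKO array and was detected on all 3 Smad2 KO arrays, so the groups lay far apart. The WT arrays, at 7.67 to 8.85, lay with the Smad2 KO clones. The log2 change was -3.29 ± 0.37 (SE, n = 3 each; limma, adjusted p = 0.0494). Set against the lowest detectable signal, Smad3 was at least 2.75-fold lower. Such a bound takes, on each dim array, the lowest signal among detected probes or the probe's own signal, whichever is higher. The dimmer Smad3 probe had a log2 change of -2.07 ± 0.25 and an adjusted p of 0.0543. Leaving out any 1 DKO clone, KT12 or KT17 put the adjusted p of the brighter probe at 0.276 to 0.358, and leaving out WT CCH or CCF put it at 0.0612 and 0.0673, with log2 changes between -3.37 and -3.08 in these fits. Without KT15 the log2 change was -3.59 and Smad3 passed (adjusted p = 0.0164).

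The bases just before the RefSeq start of Smad3 are shown because the deletion lies around the exon that follows them. They lie at chr9:63757995-63758244 on the minus strand of GRCm38.p6, with the GC box core in capitals, searched on both strands as GGGCGG and CCGCCC.
Smad3: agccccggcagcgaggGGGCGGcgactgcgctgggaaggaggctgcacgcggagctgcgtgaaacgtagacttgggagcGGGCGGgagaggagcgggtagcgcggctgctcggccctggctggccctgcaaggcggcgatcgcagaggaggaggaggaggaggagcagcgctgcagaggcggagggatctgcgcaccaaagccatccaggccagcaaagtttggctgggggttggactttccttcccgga
This window of 250 bases held 2 matches, and 32.7% of 32851 windows of that length held at least 1. Ptch1, the receptor of Hedgehog ligands, is shown because it had the lowest adjusted p after Smad3, shared with a dim probe of Cycs and a probe of Slc16a6. Its window lies at chr13:63565736-63565985, minus strand, with the Smad-binding letters CAGAC or GTCTG in capitals.
Ptch1: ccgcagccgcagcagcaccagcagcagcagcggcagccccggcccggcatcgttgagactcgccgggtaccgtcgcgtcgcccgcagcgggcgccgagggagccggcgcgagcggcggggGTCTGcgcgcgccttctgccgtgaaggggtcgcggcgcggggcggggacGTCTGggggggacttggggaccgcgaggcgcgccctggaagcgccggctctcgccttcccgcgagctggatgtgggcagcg
It held 2 such matches, letters found in 42.2% of all windows, and no match to the Gli letters GACCACCCA on either strand, which 0.225% of windows held.

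The Smad2 probe gave no check of the Smad2 deletion. It read 9.72, 9.01 and 9.40 in DKO clones 2G9, 1F6 and 2D5 and 8.55, 8.57 and 9.23 in KT12, KT15 and KT17, against 8.86 to 9.66 in WT. The levels overlapped in all 3 genotypes. Smad1 and Smad5, which carry Bmp signals, had log2 changes of -0.01 ± 0.36 and 0.04 ± 0.20.

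**Figure D1:**
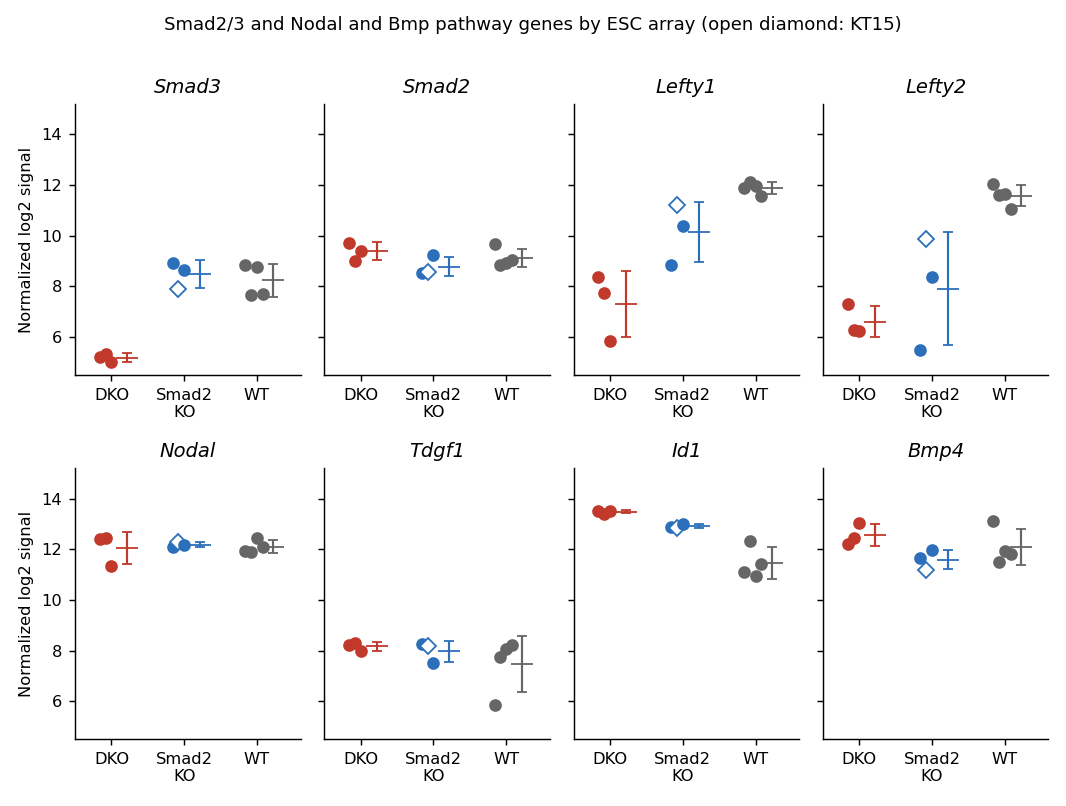
Normalized log2 signal of 8 genes on each ESC array (Smad2/3 DKO, Smad2 KO, WT), with points for arrays, an open diamond for KT15, and a bar beside them for mean ± SD (n = 3, 3 and 4). Smad3 sits at 5.04 to 5.35 in the DKO clones and at 7.89 to 8.92 in the Smad2 KO clones, while Nodal and Tdgf1 overlap.

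Over the whole array few genes stood apart. Of 8139 genes tested, 1 passed an adjusted p of 0.05 (0.0123%), Smad3, and the next lowest adjusted p was 0.228. At the study's own threshold, an unadjusted p under 0.05 with a fold over 1.5, 185 genes were higher (2.27%) and 240 lower (2.95%) in Smad2/3 DKO ESCs. Genes past it upward made 43.5% of the total here, 30.8% without background correction and 33.3% with median scaling. Without KT17 the balance turned, with 367 higher, 240 lower and 60.5% upward. Without KT12 the total of 425 fell to 259. Against WT in the same fit, 10 genes passed in Smad2/3 DKO ESCs (0.123%) and 4 in Smad2 KO ESCs (0.0491%). All 4 passed in both knockouts, with changes in Smad2/3 DKO and Smad2 KO ESCs of 4.58 and 4.71 for Cops8, 3.17 and 3.07 for Fastkd3, 3.86 and 3.31 for Glrx, and 2.14 and 2.20 for Thap4, named for that count. The others in Smad2/3 DKO ESCs included Smad3, Lefty1, Id1, Ptch1 and Tmem63a. Apart from Smad3, the ESC differences between the knockouts given below did not pass the adjusted test and are given as measured.

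Lefty1 and Lefty2, the feedback inhibitors of Nodal, read far below WT in the double mutants, more so than in the Smad2 KO clones for Lefty1. Lefty1 read 8.36, 7.74 and 5.83 in DKO clones 2G9, 1F6 and 2D5, against 8.85, 11.21 and 10.38 in KT12, KT15 and KT17. Every DKO array lay below every Smad2 KO array, with KT12 the nearest, and both groups lay below WT at 11.58 to 12.14. Lefty1 was detected on 2 of 3 DKO arrays, so its changes are set partly against a signal not above background. The log2 change was -2.84 ± 0.66 (adjusted p = 0.816). Against WT it was -4.58 ± 0.62 in Smad2/3 DKO ESCs (adjusted p = 0.0319) and -1.74 ± 0.62 in Smad2 KO ESCs (adjusted p = 0.410). Lefty2 read 7.31, 6.28 and 6.23 in the DKO clones and 5.50, 9.86 and 8.38 in KT12, KT15 and KT17. The Lefty2 probe was detected on 1 of 3 DKO arrays, 2 of 3 Smad2 KO arrays and all WT arrays, which lay at 11.06 to 12.05. The knockouts overlapped, with KT12 the lowest, but signals not above background cannot be ranked. The Lefty2 changes that follow are set partly against such signals. The log2 change of Lefty2 was -1.31 ± 0.85, which became -2.51 without KT12 and -0.34 without KT15. Against WT, Lefty2 had a change of -4.98 ± 0.80 in Smad2/3 DKO ESCs (adjusted p = 0.0761). Against the parent KT15 alone, a single array, the DKO clones differed by -3.90 ± 0.85 for Lefty1 and -3.25 ± 0.89 for Lefty2, both with an adjusted p of 0.999.

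The other targets and feedback genes of the pathway differed less. Of 11 tested, both Lefty genes included, 1, Spry4, was past the study's threshold upward and 2, Lefty1 and Ccn2, downward, beside 1.49% and 2.52% of all genes counted by their brightest probe. Their median log2 change was -0.11, against 0.02 over all genes. Ccn2, a matrix protein responsive to TGF-beta, read 12.57, 12.14 and 11.62 in the DKO clones and 13.13, 12.74 and 13.51 in KT12, KT15 and KT17, a change of -1.02 ± 0.38. Spry4, an inhibitor of Fgf signalling, read 10.33, 10.69 and 11.26 in the DKO clones and 9.73, 9.89 and 9.88 in the Smad2 KO clones, a change of 0.93 ± 0.34. Neither gene's groups overlapped at these probes, while those of a dimmer Ccn2 probe did (-1.06 ± 0.48). The corepressors Ski, Skil and Tgif1 had changes of 0.37 ± 0.22, -0.16 ± 0.29 and 0.23 ± 0.15, and the DNA-binding partner Foxh1 one of -0.45 ± 0.25. The groups of Tgif1 did not overlap at its brightest probe and did at its others. Tgfbi, Ndrg1 and Lrrc3 had 0.17 ± 0.48, -0.11 ± 0.22 and 0.23 ± 0.36, with the 2 probes of Lrrc3 opposite in sign.

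Ligands and receptors upstream of the Smads showed small differences. Nodal read 12.40, 12.45 and 11.32 in the DKO clones and 12.10, 12.28 and 12.16 in the Smad2 KO clones, a log2 change of -0.12 ± 0.29. Clone 2D5 was the low one, and WT arrays spanned 11.91 to 12.46. Among the other ligands, Gdf3 had a change of -0.27 ± 0.20, Gdf1, a partner of Nodal, one of -0.56 ± 0.50, and Tgfb1 one of 0.52 ± 0.27, the last without overlap of the groups. The proprotein convertases Furin and Pcsk6, which cut Nodal to its active form, had -0.66 ± 0.38 and 0.34 ± 0.31. The groups of Furin did not overlap either. Over all genes by brightest probe, 6.95% were higher and 6.16% lower without overlap. Of the receptors, Acvr1b, Acvr2b and Tgfbr1 had 0.27 ± 0.32, -0.29 ± 0.18 and -0.03 ± 0.17, and the coreceptor gene Tdgf1 0.19 ± 0.52. Tgfbr2 and Tgfbr3, each detected on 1 of 3 DKO and 2 of 3 Smad2 KO arrays, had -0.48 ± 0.65 and -0.64 ± 0.38. None of the 6 ligand and processing genes and none of the 6 receptors and coreceptors tested was past the study's threshold.

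In the Bmp pathway the ligand and 1 target stood higher in the double mutants. Bmp4 read 12.20, 12.44 and 13.04 in the DKO clones, against 11.64, 11.19 and 11.95 in KT12, KT15 and KT17, and WT arrays ranged over 11.48 to 13.13. The knockouts did not overlap, and the log2 change was 0.97 ± 0.40 (adjusted p = 0.816). Id1, an inhibitor of differentiation factors and a direct Bmp target, read 13.52, 13.40 and 13.52 in the DKO clones and 12.89, 12.86 and 12.99 in the Smad2 KO clones, a step of 0.57 ± 0.30 (adjusted p = 0.839). Both knockouts stood above WT at 10.96 to 12.34, by 2.03 ± 0.28 in Smad2/3 DKO ESCs (adjusted p = 0.0356) and 1.46 ± 0.28 in Smad2 KO ESCs (adjusted p = 0.242). Id3 had a change of 0.11 ± 0.34 and Id2 one of 0.00 ± 0.49 between the knockouts, with the 2 probes of Id2 opposite in sign. The antagonists Chrd, Fst and Fstl1 had -0.11 ± 0.28, -0.52 ± 0.29 and 0.25 ± 0.40. Changes of the 5 Bmp ligands and antagonists tested ran from -1.29, in a gene not named here, to 0.97, with a median of -0.11. Of these only Bmp4 was past the study's threshold, beside 1.49% of all genes upward and 2.52% downward.

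The genes with the smallest p were taken by rule among those past the study's threshold with no overlap of the knockouts, 10 in each direction, so that separation is a description. Over all genes, 9.67% were higher and 7.41% lower on every DKO array than on every Smad2 KO array. Ptch1, shown above, read 8.51, 8.80 and 8.27 in the DKO clones, against 10.41, 9.68 and 9.88 in KT12, KT15 and KT17. WT arrays lay with the Smad2 KO clones at 9.77 to 10.23. The log2 change was -1.47 ± 0.23 (adjusted p = 0.228), and against WT it was -1.49 ± 0.21 in Smad2/3 DKO ESCs (adjusted p = 0.0419). Tmem63a, an ion channel, was not above background on any DKO array and read 6.09, 6.21 and 6.01 there, against 7.03, 7.25 and 7.00 in the Smad2 KO clones and 7.20 to 8.03 in WT. Its change was -0.99 ± 0.21 (adjusted p = 0.786), at least 1.05-fold lower, and -1.48 ± 0.19 against WT (adjusted p = 0.0301).

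Peg3 and Pstpip1 read higher on every Smad2 KO array than on every WT array, and Peg3 also read lower than WT in the double mutants. Peg3, an imprinted zinc finger gene expressed from the paternal allele, read 10.39, 10.26 and 9.76 in the DKO clones and 12.41, 11.09 and 12.53 in KT12, KT15 and KT17. The parent KT15 stood between the other Smad2 KO clones and its DKO derivatives. WT lay at 10.60 to 10.73, above every DKO array. Against WT the changes were -0.50 ± 0.32 in the DKO clones and 1.37 ± 0.32 in the Smad2 KO clones. Between the knockouts the change was -1.87 ± 0.34 (adjusted p = 0.454), and without KT15 it was -2.33 with an adjusted p of 0.0106. A dimmer Peg3 probe, not above background on any DKO array, had a change of -2.07 ± 0.39 between the knockouts. Pstpip1, a cytoskeletal adaptor, read 7.47, 7.51 and 7.55 in the DKO clones and 8.67, 8.32 and 8.47 in the Smad2 KO clones, with WT at 7.35 to 7.94. Both genes thus lay nearer to WT in the double mutants. Plcxd1 was not above background in any DKO clone (5.80, 6.51 and 6.06), at least 1.42-fold lower than in the Smad2 KO clones. Those read 7.55, 7.61 and 7.43, with WT at 6.14 to 7.03. Plcxd1 was detected on 1 WT array, so it passed the detection filter mainly through the Smad2 KO arrays. Prag1, a pseudokinase gene, was also below background in every DKO clone (6.73, 6.69 and 6.91, against 8.02, 7.97 and 8.27 in the Smad2 KO clones), at least 2.08-fold lower, with WT at 7.13 to 8.19. Kcnk1, a potassium leak channel, and Kif5c, a kinesin heavy chain, had changes of -1.22 ± 0.28 and -1.01 ± 0.24. Against WT, Kcnk1 had -0.86 ± 0.26 in the DKO clones and 0.36 ± 0.26 in the Smad2 KO clones, and Kif5c had -0.65 ± 0.22 in the DKO clones and 0.36 ± 0.22 in the Smad2 KO clones. The WT means of Plcxd1, Prag1, Kcnk1 and Kif5c thus lay between those of the knockouts. For Pstpip1, Plcxd1, Prag1, Kcnk1 and Kif5c the parent KT15 read with KT12 and KT17.

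**Figure D2:**
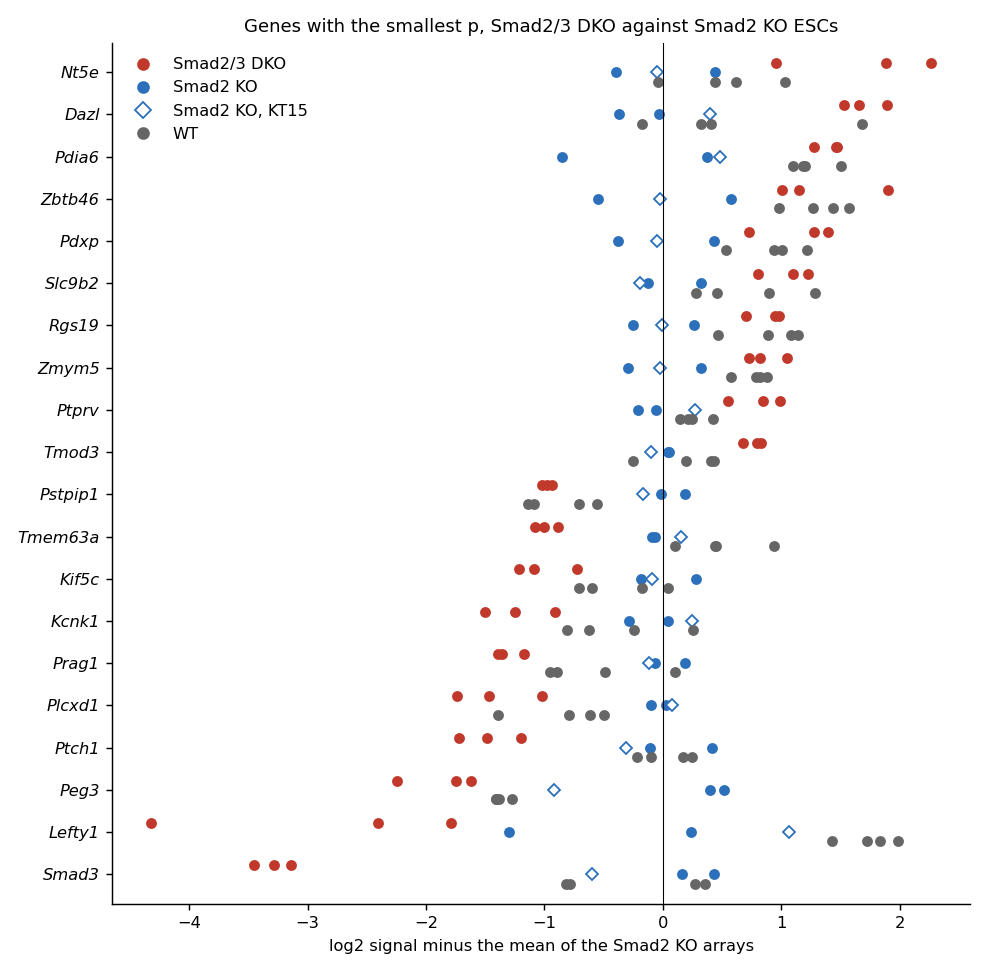
Log2 signal minus the mean of the Smad2 KO arrays for Smad3 and the genes with the smallest p, 1 point per array (Smad2/3 DKO, Smad2 KO with KT15 as an open diamond, WT). WT arrays lie above all Smad2 KO arrays for Pdia6, Zbtb46, Pdxp, Rgs19 and Zmym5, and among them for Ptch1.

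Of the 10 genes higher in the double mutants, 4 were below background on all Smad2 KO arrays at every probe tested, and 5 had every WT array above every Smad2 KO array. The genes were picked for Smad2 KO arrays below all DKO arrays, which favours both traits. The share of all genes with either trait was not counted. The detection filter also admits a gene below background in 1 group only through the other arrays. Dazl was detected on 3 DKO, 0 Smad2 KO and 1 WT array, and Nt5e on 2, 0 and 1. Both thus passed the filter mainly through the group where they are high. Nt5e, the cell-surface nucleotidase CD73, read 6.78, 7.71 and 8.09 in the DKO clones, detected on 2 of 3, against 5.43, 5.77 and 6.26 in the Smad2 KO clones, below background on all 3, at least 1.37-fold higher. Dazl, an RNA-binding protein of germ cells, read 7.53, 7.29 and 7.16 in the DKO clones and, below background, 5.27, 6.03 and 5.60 in the Smad2 KO clones, at least 1.19-fold higher. Its WT arrays, at 5.46 to 7.31, reached both groups. Pdia6, a disulfide isomerase of the endoplasmic reticulum, read 8.43, 8.42 and 8.23 in the DKO clones and 6.11, 7.44 and 7.33 in the Smad2 KO clones, with WT at 8.06 to 8.46. Zmym5, a zinc finger gene, read 9.63, 9.40 and 9.30 in the DKO clones and 8.28, 8.55 and 8.90 in the Smad2 KO clones, with WT at 9.15 to 9.45. In both genes WT lay above every Smad2 KO array, as it did for Pdxp, a pyridoxal phosphatase (1.13 ± 0.26), the zinc finger gene Zbtb46 and Rgs19, a regulator of G protein signals. Zbtb46 was below background on all Smad2 KO arrays and was at least 1.22-fold higher in the DKO clones. The probes of Rgs19 differed, with a change of 0.88 ± 0.22 at the brighter one and 0.27 ± 0.19 at the other, which was detected on 2 of 3 Smad2 KO arrays. Slc9b2, a sodium and proton exchanger, was also below background on all Smad2 KO arrays and was at least 1.06-fold higher. Tmod3, which caps actin filaments, and Ptprv, a receptor-type phosphatase gene, had 0.77 ± 0.19 and 0.79 ± 0.18 and read higher in every DKO clone than on every WT array.

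Cycs and Slc16a6 were named after their values were seen. A dim probe of Cycs, the gene of cytochrome c, read 7.00, 7.00 and 7.16 in the DKO clones and 5.86, 6.08 and 6.21 in the Smad2 KO clones, with WT at 6.85 to 7.02, a log2 change of 1.00 (adjusted p = 0.228). The bright Cycs probe read 12.22 to 12.54 in the DKO clones and 12.26 to 12.38 in the Smad2 KO clones, a change of 0.05. The probes of Cycs thus did not move together. Slc16a6, a transporter of the monocarboxylate family, read 6.39, 6.87 and 7.23 in the DKO clones and 9.09, 8.65 and 8.27 in the Smad2 KO clones at 1 probe, with changes of -1.84 (adjusted p = 0.228) and -1.24 at its 2 probes.

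A set of cytoskeletal genes separated the Smad2 KO clones from each other. Acta2, smooth muscle actin, read 10.79, 6.01 and 6.71 in DKO clones 2G9, 1F6 and 2D5, against 13.53, 9.68 and 13.94 in KT12, KT15 and KT17, with WT at 9.22 to 13.36. Clone 2G9 lay above KT15, so the groups overlapped. The probe was detected on 1 of 3 DKO arrays, so that the change of -4.54 ± 1.47 (adjusted p = 0.816) is set partly against signals not above background. Other tested probes of Acta2 had smaller changes of -2.42 ± 1.05, -2.90 ± 1.13 and -3.51 ± 1.52, also with overlap of the groups. Tagln, which binds smooth muscle actin, was not above background in any DKO clone (5.37 to 5.49) and read 8.58, 5.21 and 9.01 in KT12, KT15 and KT17, with KT15 at the DKO level. Myl9, Tpm1, Tpm2 and Ankrd1, genes of contractile filaments and of the response to stretch, had changes of -1.60 ± 0.52, -1.35 ± 0.48, -1.27 ± 0.55 and -2.10 ± 0.70. Tagln and Ankrd1 were at least 1.49-fold and 1.48-fold lower, by the mean of the Smad2 KO clones. Of 9 contractile genes tested, 6 were past the study's threshold downward and none upward, beside 2.52% and 1.49% of all genes, and all 9 had a change below 0. Their median was -1.35, against 0.02 over all genes. Between the DKO clones and KT15 the same list had a median of -0.26 with none past the threshold. Over all 8139 genes by brightest probe, 182 were past it upward and 95 downward in that comparison. Between KT15 and the other 2 Smad2 KO clones the list had a median of -1.65 with 4 past the threshold downward, beside 248 of 8139 genes. The summed linear signal of the list was 11676, 7220 and 9074 in the DKO clones, against 31256, 10602 and 39482 in KT12, KT15 and KT17. In WT clones CCE, CCB, CCH and CCF it was 8614, 12900, 27808 and 17801, so WT clones were also spread.

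Part of the keratins, annexins and trophoblast genes showed the same split of clones. Between KT15 and the other Smad2 KO clones, 4 of 16 trophectoderm and trophoblast genes, 3 of 8 simple epithelium genes and 4 of 8 annexin, galectin and S100 genes were past the study's threshold downward, beside 248 of 8139 genes in all. The trophoblast and simple epithelium lists share at least Krt18, so their counts are not separate. Krt8, a keratin of simple epithelia, read 11.27, 8.38 and 8.79 in the DKO clones and 12.84, 9.39 and 12.58 in KT12, KT15 and KT17, and its partner Krt18 read 10.27, 7.04 and 7.52 in the DKO clones and 11.93, 8.32 and 11.71 in the Smad2 KO clones. KT15 lay among the DKO clones for both, and the changes were -2.12 ± 1.10 and -2.38 ± 1.29. Krt7, another simple keratin, had -1.97 ± 0.71, and the X-linked homeobox genes Rhox6 and Rhox9 -1.40 ± 0.49 and -1.31 ± 0.38. Fgfr2, a receptor through which Fgf sustains trophoblast, differed from these, with 8.32, 9.07 and 9.44 in the DKO clones and 10.86, 10.10 and 10.13 in KT12, KT15 and KT17, all Smad2 KO clones above all DKO clones (-1.42 ± 0.34). Of 16 trophectoderm and trophoblast genes tested, 5 were past the study's threshold downward and 1, Bmp4, upward (over all genes 2.52% and 1.49%), with a median of -0.63, and of 0.05 against KT15 alone. Of 8 genes of simple epithelium 1 was past it, Krt7, with a median of -0.97. Of 8 annexin, galectin and S100 genes none was, and their median was -0.55 between the genotypes, 0.24 against KT15 and -1.36 between KT15 and the other Smad2 KO clones. In bulk samples of this kind, fewer cells of a type and less RNA per cell cannot be told apart.

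**Figure D3:**
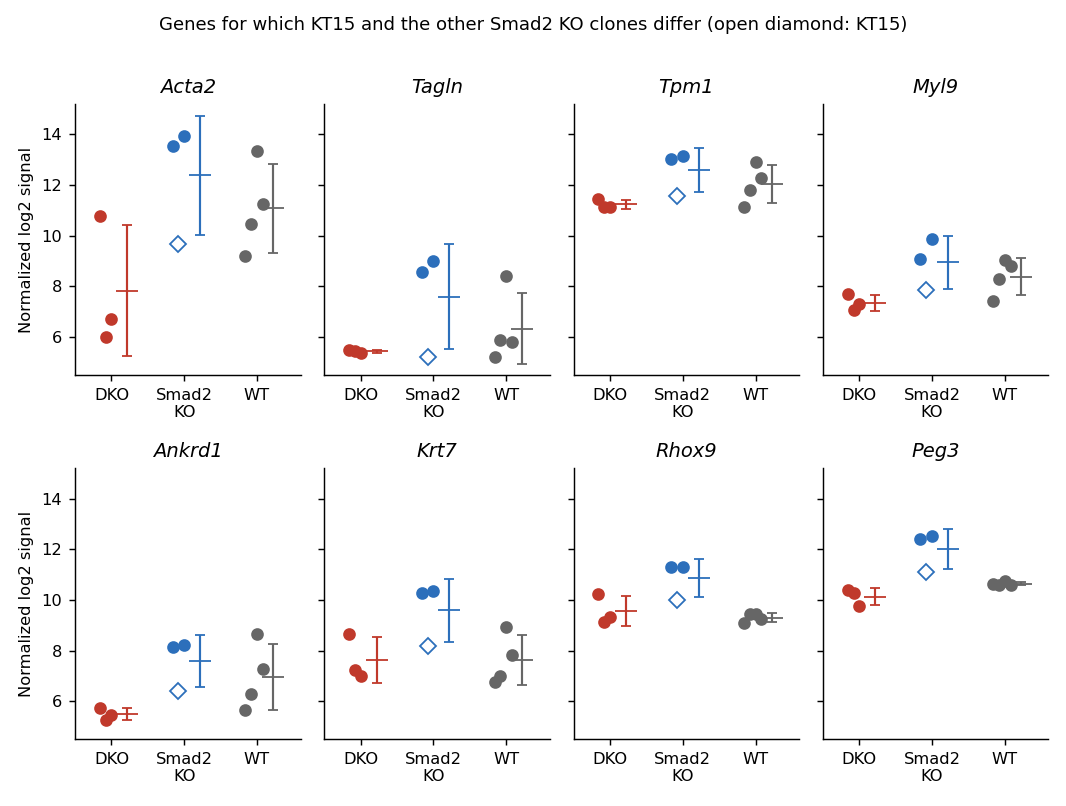
Normalized log2 signal of 8 genes on each ESC array (Smad2/3 DKO, Smad2 KO, WT), with points for arrays, an open diamond for KT15, and a bar beside them for mean ± SD (n = 3, 3 and 4). For Tagln KT15 reads 5.21 while KT12 and KT17 read 8.58 and 9.01, and the DKO clones lie at 5.37 to 5.49.

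Set against the parent KT15, the DKO clones had 0 genes past an adjusted p of 0.05 (0%; limma, lowest 0.877), with 448 genes at an unadjusted p under 0.05. At the study's threshold 303 genes were higher (3.72%) and 138 lower (1.7%). KT15 against KT12 and KT17 also gave 0 called genes (581 at an unadjusted p under 0.05), with 208 higher (2.56%) and 368 lower (4.52%) at the study's threshold. Both comparisons rest on 1 KT15 array, assumed to vary like the other groups. Without KT12, 1 gene passed between KT15 and KT17, Rpl29, a ribosomal protein gene named for that count, at -3.54 (adjusted p = 0.0233).

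Several of the genes with the smallest p against KT15 were low in KT15 alone. They were picked for that p against 1 array, which favours genes where this array is extreme. Arpc5l, a subunit of the actin-branching complex, read 7.74, 7.65 and 7.91 in the DKO clones and 6.00 in KT15. KT12 and KT17 read 7.77 and 7.35, and WT 7.36 to 7.92. The tRNA methylation gene Trmt10c, the annexin partner S100a10, the cell death gene Bad, and Iqce were also lowest in KT15 of the 10 arrays, with DKO clones above it by 1.58, 1.36, 1.32 and 1.35. KT15 had the fewest detected probes, 11338, against 12317 to 12879 in the DKO clones and 13021 and 13085 in KT17 and KT12, and the part of this in the values was not tested. In the other direction stood Smad3 (-2.69 ± 0.48), Lefty1, the receptor tyrosine kinase gene Alk (-1.49), Rasd2 (-1.06) and Bcl2l15. Bcl2l15, of the Bcl2 family, was below background in the DKO clones (6.31, 6.28 and 6.46) and read 8.77 in KT15, with 6.95 and 7.17 in KT12 and KT17. Over the tested probes KT15 correlated best with its derivative 1F6 (r = 0.974) and at a mean of 0.956 with KT12 and KT17, values across probes that describe these arrays.

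Markers of ESCs were high on all 6 arrays. Pou5f1, the core pluripotency factor, read 14.30, 14.09 and 14.11 in the DKO clones and 14.00, 13.91 and 14.29 in KT12, KT15 and KT17. Sox2 and Sall4 had changes of 0.07 ± 0.20 and -0.43 ± 0.24. Of 16 naive pluripotency genes tested, 1, the nuclear receptor gene Nr5a2 (0.79 ± 0.34), was past the study's threshold, with a median of 0.19 over the list. Nanog, Esrrb, Zfp42 and Klf4 had 0.27 ± 0.21, 0.19 ± 0.23, 0.18 ± 0.23 and 0.25 ± 0.24. Of 7 primed pluripotency genes 1, Sall2 (-0.91 ± 0.41, below background in the DKO clones and at least 1.08-fold lower), was past it, with a median of -0.38. Over all genes, 1.49% were past the threshold upward and 2.52% downward, so single members of such short lists say little about the lists. Of 13 fibroblast and mesenchyme genes on the array, 3 to 4 were detected on the DKO arrays and 3 to 4 on the Smad2 KO arrays, with a summed linear signal of 3689 to 4612 and 4030 to 4934. The member of that list with the smallest p was the fibronectin gene Fn1 (-0.50 ± 0.21).

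Genes of the first lineages gave mixed values. Of 18 primitive streak and mesoderm genes on the array 2 were tested, and Evx1, a homeobox gene of the streak, read 8.03, 9.30 and 8.48 in the DKO clones and 6.16, 7.83 and 7.89 in the Smad2 KO clones, with WT at 7.40 to 8.34 (1.31 ± 0.48). Of 12 endoderm genes 1, Sox7, a transcription factor of primitive endoderm, was past the study's threshold at 1.08 ± 0.35, beside 1.49% of all genes upward. The DKO clones (8.96, 8.84 and 9.66) lay above every Smad2 KO array (7.54, 8.29 and 8.40) and every WT array (6.67 to 7.90). Gata6, of the same lineage, was uneven, with 7.16, 5.33 and 9.19 in the DKO clones and 8.57, 6.47 and 6.34 in KT12, KT15 and KT17. The basement membrane gene Col4a1 had a change of -1.10 ± 0.58. Among neural genes Stmn2 had 0.76 ± 0.24 and Sox11 -0.92 ± 0.33, and of 6 germline genes Dazl and Taf7l (1.42 ± 0.59) were past the threshold upward, as were 1.49% of all genes.

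Among growth and signalling genes, Myc read 8.87, 8.23 and 8.68 in the DKO clones and 7.36, 6.88 and 8.09 in the Smad2 KO clones, with WT at 7.44 to 8.43, a change of 1.15 ± 0.35. Rarg, a retinoic acid receptor, read 10.22, 10.02 and 10.50 in the DKO clones and 9.49, 9.37 and 9.53 in the Smad2 KO clones, with WT at 9.04 to 9.74 (0.78 ± 0.21). Both genes were higher on every DKO array than on every Smad2 KO array. The cell cycle inhibitor gene Cdkn2a had -0.84 ± 0.29, the kinase gene Pim1 -0.71 ± 0.30, the cell death gene Hrk -0.78 ± 0.33 and the corepressor gene Tle3 -0.68 ± 0.28. In the lists of annexins, matrix, DNA methylation, stress response, metabolism, germ cell precursors and the 2-cell-like state no gene was past the study's threshold at its brightest probe. Other probes of Pdk1 (1.16), Pkm (1.44), Slc7a3 (-0.69) and, as given above, Cycs were past it. Their members with the smallest p included Lgals3 (0.41 ± 0.18), Gadd45g (-1.70 ± 0.82), Dppa3 (-0.95 ± 0.50), Zscan4c (-0.26 ± 1.10), Mthfd2 (-0.55 ± 0.26), Pdk1 (-0.35 ± 0.22), Ndufb8 (0.18 ± 0.15) and Insig1 (0.47 ± 0.26). The Y-linked Eif2s3y had 0.63 ± 0.39 and was below background in KT15.

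Smad3 was also deleted in WT ESCs, and the 2 effects of its loss were compared as a difference of differences over all 13 ESC arrays. The Smad3 KO arrays held clones CCE.1H1, CCE.2E7 and CCE.2B7, which by their names all descend from CCE. The WT group also held CCB, CCH and CCF, so loss of Smad3 and the parent clone cannot be told apart on WT. The count of genes past an adjusted p of 0.05 was 0 (lowest 0.146; limma, 348 at an unadjusted p under 0.05). The library labelled Smad3 KO replicate 4 went against its label, with Smad3 at 9.75 where the other Smad3 KO arrays read 5.11 and 5.26, and without it the count was also 0 (lowest 0.356). Lefty1 had a change with Smad3 loss of -2.84 ± 0.66 on the Smad2 KO background and, without that library, -2.09 ± 0.80 on WT. Ptch1 had -1.47 ± 0.23 on the Smad2 KO background and -0.75 ± 0.29 on WT. Prag1 had -1.31 ± 0.26 and -1.79 ± 0.27, and Peg3 -1.87 ± 0.34 and -1.13 ± 0.39, in the same order of backgrounds. Stmn2, a neural gene with the lowest adjusted p for the difference in both fits, had opposite signs, 0.76 ± 0.24 on the Smad2 KO background and -1.59 ± 0.25 on WT. These comparisons share the WT arrays of the fit.

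The same contrast in embryoid bodies (EBs), grown as hanging drops in serum without LIF, gave more called genes at d3. With all labelled arrays 1 of 8681 genes passed at d2 (0.0115%), Lefty1, and 388 of 8886 at d3 (4.37%), 232 higher (2.61%) and 156 lower (1.76%). Of these libraries, the one labelled d2 Smad2 KO replicate 4 read 5.19 for Smad3 and the one labelled d2 Smad2/3 DKO replicate 4 read 9.46, both against their labels. The library labelled d3 Smad2 KO replicate 4 correlated at a mean of 0.948 with the Smad2 KO ESC arrays and 0.892 with the other d3 Smad2 KO arrays. Without the 3 libraries 15 genes passed at d2 (0.176%) and 774 at d3 (8.82%). At d2 these were 2 higher (0.0235%), Gata3 and Gadd45g, and 13 lower (0.153%), and at d3 324 higher (3.69%) and 450 lower (5.13%). The values that follow are from those fits.

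Pathway genes that had not passed in ESCs passed in EBs. Lefty1 fell in Smad2/3 DKO EBs, with log2 changes of -5.66 ± 0.23 at d2 and -5.21 ± 0.41 at d3 (adjusted p = 1.51e-06 and 3.21e-05). Lefty2 had -4.04 ± 0.30 and -5.75 ± 0.32 (adjusted p = 1.10e-04 and 3.97e-06). In the DKO arrays kept, Lefty1 read 5.16 to 5.34 at d2 and 5.22 to 5.91 at d3. Lefty2 read 4.92 to 5.24 and 5.09 to 5.66 there. Nodal and Tdgf1, whose ESC changes were smaller than their SE, had -1.93 ± 0.31 and -2.26 ± 0.35 at d3 (adjusted p = 0.00278 and 0.00240). Fst, an Activin antagonist, had -6.75 ± 0.40 at d3 (adjusted p = 5.26e-06). The d3 DKO arrays read 5.17 to 5.95 for Tdgf1 and 5.27 to 7.25 for Fst. Many of these DKO signals lie near the level of Smad3 below background in DKO ESCs. The sizes of the Lefty1, Lefty2, Tdgf1 and Fst changes are thus uncertain. Tmem63a had a change of -1.30 ± 0.23 at d2 and -1.43 ± 0.22 at d3 (adjusted p = 0.108 and 0.00199), the same sign as in ESCs, and at d2 another of its probes passed, at -1.25 (adjusted p = 0.0479). Ptch1, by contrast, had 0.23 ± 0.49 and 0.51 ± 0.32, and Peg3 0.04 ± 0.30 and -0.30 ± 0.39. Prag1 and Nt5e had at d3 the sign opposite to that in ESCs, 1.16 ± 0.21 and -3.19 ± 0.52 (adjusted p = 0.00638 and 0.00299). With all labelled arrays the d3 changes were -5.25 ± 0.38 for Lefty1, -5.35 ± 0.41 for Lefty2, -1.83 ± 0.29 for Nodal, -2.43 ± 0.34 for Tdgf1 and -5.70 ± 0.82 for Fst, all 5 past the threshold (adjusted p = 1.15e-04, 1.24e-04, 0.00575, 0.00373 and 0.00405). Prag1 also passed with all arrays, at 1.36 ± 0.24 (adjusted p = 0.0102), while Nt5e at -2.18 ± 0.85 did not (adjusted p = 0.194). For Tmem63a the brighter probe did not pass with all arrays, at -1.12 ± 0.29 (adjusted p = 0.0561), and the other did, at -1.11 ± 0.22 (adjusted p = 0.0181). At d2 with all arrays Lefty1 had -5.02 ± 0.60 (adjusted p = 0.0335) and Lefty2 -3.75 ± 1.02 (adjusted p = 1.000). Differences between stages were not tested.

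**Figure D4:**
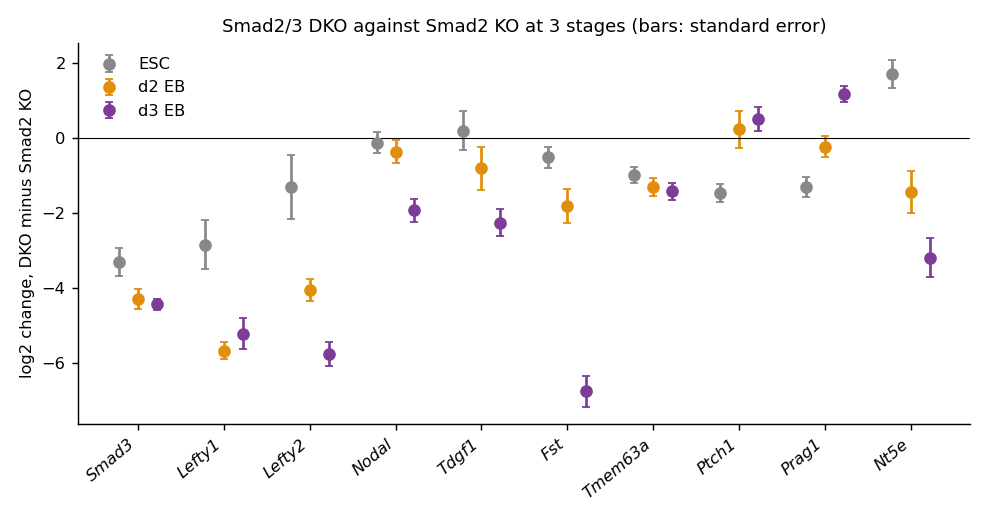
Log2 change of 10 genes, Smad2/3 DKO minus Smad2 KO, in ESCs and in d2 and d3 EBs, with bars for standard errors and the EB fits without the 3 libraries named in the text. Lefty1 is at -2.84 in ESCs, -5.66 at d2 and -5.21 at d3.

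Median signal by chromosome differed between clones of 1 genotype. Relative to the mean of WT, the median over 438 genes of chromosome 8 was -0.13, -0.13 and -0.16 in DKO clones 2G9, 1F6 and 2D5, against -0.16, -0.01 and -0.19 in KT12, KT15 and KT17. On chromosome 11, with 700 genes, it was -0.09, -0.10 and -0.10 in the DKO clones and -0.13, 0.00 and -0.13 in KT12, KT15 and KT17. On both chromosomes KT15 lay above its derivatives, and KT12 and KT17 lay below them. WT arrays spanned -0.17 to 0.23 on chromosome 8 and -0.12 to 0.28 on chromosome 11, with clone CCB the highest on both, a wider range than that of the knockouts. Clone 2G9 stood at 0.19 on chromosome 1 and KT12 at 0.14 on chromosome 6. Prag1 and Kcnk1 lie on chromosome 8 and Lefty1, Lefty2 and Tmem63a on chromosome 1, and the part of a chromosome's level in single genes was not tested.

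**Figure D5:**
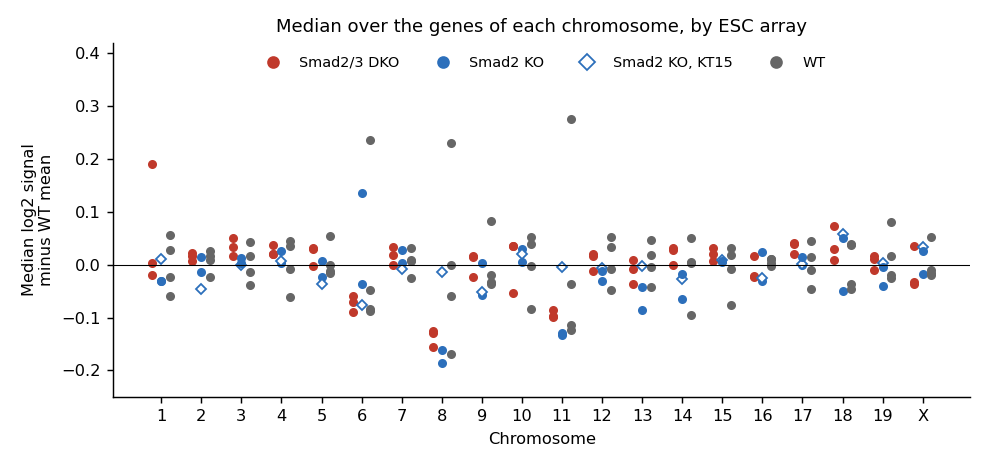
Median log2 signal over the tested genes of each chromosome minus the WT mean, 1 point per ESC array (Smad2/3 DKO, Smad2 KO with KT15 as an open diamond, WT, left to right). On chromosome 8 the DKO arrays lie at -0.16 to -0.13 and KT15 at -0.01.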

How the data were processed

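RNA of each ESC clone was hybridised to an Illumina MouseWG-6 v2.0 BeadChip. The authors exported probe intensity values, not normalized, and detection p-values from GenomeStudio 2009.2, and also deposited a table of normalized log2 values. Here the intensities were background-corrected and quantile normalized by neqc (limma 3.58.1, R 4.3.3, offset 16, negative controls inferred from the detection p-values). Probes with a detection p-value under 0.01 on at least 3 of 10 ESC arrays were kept, 13819 probes of 8139 genes. DKO, Smad2 KO and WT arrays were fitted together with lmFit and eBayes, and p-values were adjusted by Benjamini-Hochberg over all 13819 probes. Where a gene had several tested probes, the brightest one stands for it. The number of arrays limits the precision. Genes were named by a rule: Smad family members, called genes, the 10 genes with the smallest p in each direction among those past the study's threshold without overlap, detected Nodal and Bmp pathway members, the leading members of every other list, and the 5 genes in each direction with the smallest p against KT15. The members and lists were chosen with earlier results of these data known. The fit was tested on simulated data. Alternatives covered the arrays in the fit, the deposited normalized table, background correction, scaling, filters, 1 probe per gene, an intensity trend, a replicate block and left-out arrays. Promoter windows came from RefSeq (GRCm38.p6).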

Additional observations from a re-analysis of the deposited data

Results flagged for a closer look

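Among the 4 WT ESC arrays, 1 array stood far from the rest for 4 of 96 genes checked, and chance alone flags about 1 in 20 groups. Lrrc3 read 6.23 in WT replicate 2 and 7.49 to 7.74 in the other WT arrays. Fst read 7.22 in WT replicate 1 and 7.63 to 7.68 in the others. Tpm2 read 9.88 in WT replicate 3, clone CCH, and 8.16 to 8.38 in the others. Eif2s3y read 7.00 in WT replicate 1 and 8.08 to 8.24 in the others.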

How the results depend on the processing

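The call of Smad3 was close to the threshold. The count of 1 called gene became 0 over all 13 ESC arrays, without background correction, with the detection filter over all 45 arrays and without a filter, and it ranged from 0 to 2 when single arrays were left out, 2 being Smad3 and Peg3 without Smad2 KO replicate 3 (KT15). Over all 45 arrays the 1 called gene was Cycs. The 425 genes at the study's threshold became 272 over 13 arrays, 234 without background correction and 648 without a filter, and ranged from 259 to 630 when single arrays were left out. Against KT15 the count stayed at 0, and between KT15 and the other clones it was 0 or 1 with KT12 or KT17 left out, chosen after seeing the data. Without the 3 EB libraries the counts were 15 at d2 and 774 at d3. With the replicate number as a block (replicate block) 0 genes passed, and the adjusted p of the brighter Smad3 probe was 0.20. Deviations of same-numbered DKO and Smad2 KO arrays correlated at 0.02, 0.21 and 0.15, and 2 of 3 DKO arrays correlated best with their own number. The labels of these arrays share only the number, and so few arrays cannot tell whether they share more. Of the single genes, Zscan4c turned to 0.0116 without background correction, and Smad5, Tgfbr1 and S100a10 to -0.00760, 0.0273 and -0.0263 with median scaling. When single arrays were left out, these uncalled log2 changes crossed 0, with the ranges Smad1 -0.337 to 0.356, Tgfbi -0.0523 to 0.354, Tgfbr2 -1.15 to 0.0447, Chrd -0.335 to 0.0847, Id2 -0.451 to 0.326, Id3 -0.0590 to 0.278, Smad5 -0.0337 to 0.160, Nodal -0.320 to 0.244, Tgfbr1 -0.0979 to 0.0397, Gata6 -0.886 to 1.05, Zscan4c -1.10 to 1.13, Skil -0.448 to 0.182, Fstl1 -0.0819 to 0.541, S100a10 -0.470 to 0.447, Bad -0.0273 to 0.688, Iqce -0.208 to 0.578, Rasd2 -0.410 to 0.396, Acvr1b -0.0503 to 0.439 and Tdgf1 -0.0394 to 0.329. The cause was not tested. Signals near background limit the dim genes. Bounds are given only for genes not above background on any array of 1 knockout group. Other changes set partly against such signals are given as measured.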
